A study of Mus musculus with 32 samples.

Results

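Glutamate, GABA and glycine receptor subunits were described across hippocampal samples of young and old mice of 4 genotypes. The members were every probe of the Illumina bead array whose gene symbol names such a subunit and which had a detection p-value below 0.05 on 3 or more arrays. The symbols matched 53 probes of 40 genes among 25697 probes, and 28 probes of 20 genes met the detection rule, out of 14745 probes that met it in all.

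Fast excitation in the hippocampus runs mainly through AMPA, kainate and NMDA receptors, which are cation channels assembled from glutamate-binding subunits. GABA-A and glycine receptors are chloride channels that carry fast inhibition, while metabotropic glutamate receptors and GABA-B receptors are coupled to G proteins and act more slowly. Most of these receptors are assembled from several subunits, and the choice of subunits sets their conductance, kinetics and position in the membrane.

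Total hippocampal RNA was hybridised, with 1 array per sample and 32 arrays in all. Wild type C57BL/6J mice gave 4 young (1 month) and 6 old samples (23 months). ASC -/- mice, which lack the inflammasome adaptor, gave 3 young and 6 old samples, and CIAS -/- mice, which lack the inflammasome sensor NLRP3, gave 3 young and 6 old samples. The old ASC knockout samples are titled 23 months, but the age field of 5 of them says 21 months. CASP11 -/- mice, which lack the inflammatory caspase 11, gave 4 young samples and are labelled at that age only. All knockouts are labelled with the same C57BL/6J background, and all mice ate chow after weaning. The labels state no breeding scheme and name no separate animals, so the p-values cover the spread among these samples and no more. How much of that spread is technical is not known. Eif2s3y, a Y-linked gene, was low on 2 of 4 young and 1 of 6 old wild type arrays. It was also low on 2 of 3 young ASC arrays and 2 of 4 arrays labelled CASP11, so each of these groups held more than 1 animal. It was low on 0 arrays of the other groups. The design asks how hippocampal expression changes with age and whether loss of ASC or NLRP3 alters that change.

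Between 13172 and 13900 probes were detected per array. Marker levels are the log2 of the normalized linear signals summed over the probes of a list, so bright probes weigh most. Genes that mark the dentate gyrus and CA1 summed to 11.35 to 12.31 and to 11.68 to 12.53 on 31 arrays. Old wild type replicate 6 stood apart, with the dentate gyrus list (2 of 6 genes measured) at 8.11 and the CA1 list (4 of 5) at 10.97. Its striatum list (6 of 10 genes measured) summed to 14.83, against 10.35 to 10.78 on the other 5 arrays of its group. Choroid plexus markers (5 of 6 genes) varied within groups, with the lowest sums at 10.18 in the old CIAS knockout, 11.93 in the old ASC knockout and 12.01 on old wild type replicate 6, and the highest at 14.66 in the old ASC knockout. The probes for Pycard (ASC) and Nlrp3 were detected on 0 of 32 arrays, wild type included, so they do not check these labels. Of 3 Casp4 (caspase 11) probes, 1 was detected on every array. It read 5.32 to 5.52 on the 4 arrays labelled CASP11 knockout and 5.24 to 5.66 in young wild type. The labels do not say which part of the gene was deleted or whether this probe lies in it, so the CASP11 label is not borne out by this probe, and directions drawn from those arrays rest on the label.

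The array read some subunits and not others. All 9 AMPA probes, for Gria1 to Gria4 (the pore-forming subunits GluA1 to GluA4), met the detection rule. So did 4 of 6 kainate probes (Grik1, Grik2, Grik4 and Grik5), 2 of 5 NMDA probes (Grin2a and Grin2c) and 2 of 5 metabotropic probes (Grm7 and Grm8). For inhibition, 7 of 16 GABA-A probes (Gabra3, Gabrb1, Gabrb2, Gabrd and Gabrg1), 1 of 2 GABA-B probes (Gabbr1) and 3 of 6 glycine receptor probes (Glra2 and Glrb) met it. All 4 probes of the rho subunits failed it. Of the 25 probes left out, 23 were detected on 0 arrays and 2, for Grm4 and Grin2b, on 1 array. The undetected probes include Gabra2, Gabra4 and Gabra5, subunits known to be abundant in hippocampus, so an undetected probe is not a measure of absence. Among the 28 probes kept, 25 were detected on all 32 arrays, the Gria3 probe ILMN_1238789 on 31, Grik2 on 28 and Grin2a on 19.

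Values below are log2 signals after background correction and quantile normalization. They are compared between arrays for 1 probe or 1 marker list, and never between probes. Differences come from 1 limma fit of the 7 groups over all 14745 probes, with Benjamini-Hochberg adjustment over all of them, and a probe was called at an adjusted p under 0.05. RNA came from whole tissue, so fewer cells of a type and less RNA per cell cannot be told apart in any of the differences given.

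**Figure D1:**
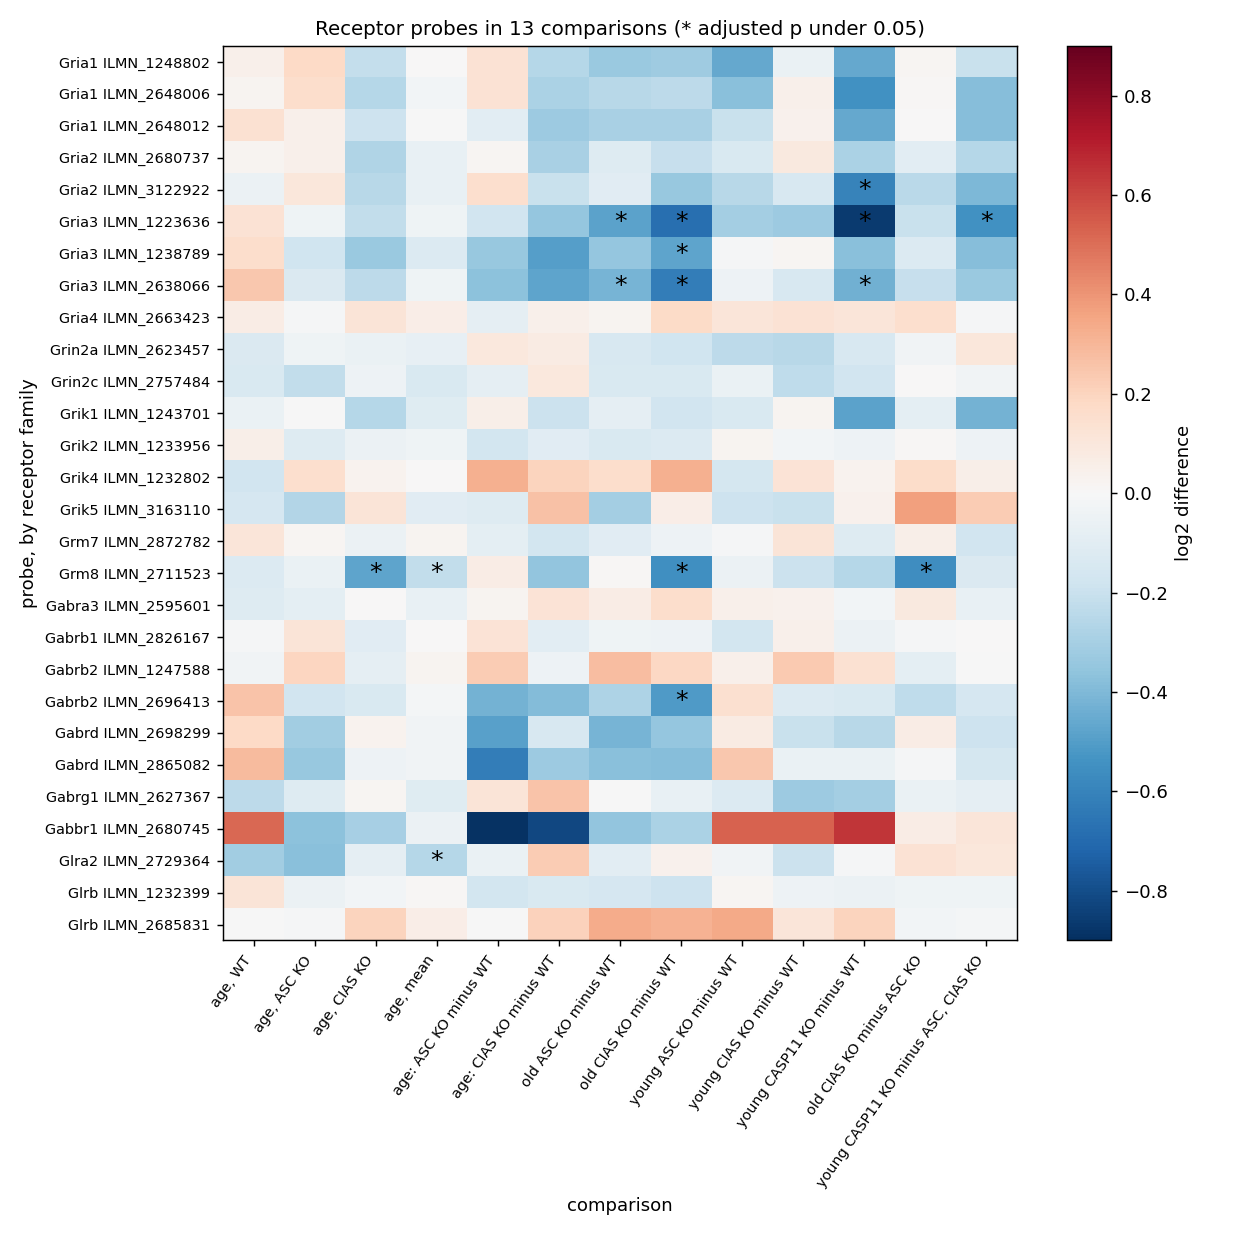
Log2 differences of the 28 receptor probes (rows, by family) in 13 comparisons (columns, first group minus second), with blue for lower, red for higher and an asterisk for adjusted p under 0.05. All 15 asterisks stand on blue cells, 8 of them on Gria3 probes and 4 on Grm8, and the strongest red cells belong to Gabbr1.

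Old knockout hippocampus was set against old wild type to ask how the genotypes differed in old age. In the old CIAS knockout, 5 of 28 receptor probes were lower than in old wild type and 0 were higher. They were all 3 probes of Gria3, 1 of 2 probes of Gabrb2 and the probe of Grm8. Over all probes 7.92% were called in this comparison, and 4.8% were called lower. In the old ASC knockout, 2 of 28 were lower and 0 higher, both of Gria3, where 3.82% of all probes were called and 2.08% were lower. The median receptor difference was -0.18 in the old CIAS knockout and -0.14 in the old ASC knockout, against 0.02 over all probes in each. Both comparisons use the same old wild type arrays.

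Gria3 encodes GluA3, an AMPA subunit that pairs mainly with GluA2 in the adult hippocampus, and lies on chromosome X. Its probe ILMN_2638066 had a lowest, median and highest value of 7.02, 7.43 and 7.61 in old wild type. The corresponding values were 6.79, 6.96 and 7.09 in the old ASC knockout and 6.42, 6.73 and 6.96 in the old CIAS knockout. Every old CIAS array lay below every old wild type array, while the old ASC arrays overlapped wild type only through replicate 6, the lowest wild type array. Groups that do not overlap were found for 2 receptor probes in the old CIAS comparison, this one and that of Grm8 (2.96% of all probes), and for 0 in the old ASC comparison (2.07%). The probe fell by 0.62 in the old CIAS knockout (SE 0.093, adjusted p = 8.39e-05) and by 0.42 in the old ASC knockout (SE 0.093, adjusted p = 0.0135). Both calls held in every refit that left out 1 array.

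The Gria3 probe ILMN_1223636 moved the same way. It had a lowest, median and highest value of 6.63, 7.03 and 7.35 in old wild type, 6.14, 6.49 and 6.88 in the old ASC knockout and 5.87, 6.33 and 6.64 in the old CIAS knockout. The old CIAS and old wild type groups overlapped by a single pair of arrays, and the old ASC group overlapped more widely. The probe fell by 0.68 in the old CIAS knockout, 1.60-fold lower (SE 0.12, adjusted p = 0.00091), and by 0.48 in the old ASC knockout (SE 0.12, adjusted p = 0.0295). The ASC call was lost in the refits without old wild type replicate 1, 3 or 4 or without old ASC replicate 1 or 5, with adjusted p up to 0.08.

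The dimmest Gria3 probe, ILMN_1238789, ran from 5.48 to 5.98 in old wild type, from 4.97 to 5.72 in the old ASC knockout and from 5.18 to 5.50 in the old CIAS knockout. It fell by 0.48 in the old CIAS knockout (SE 0.13, adjusted p = 0.0185), and its old ASC difference of -0.35 did not pass (SE 0.13, adjusted p = 0.107). The lowest correlation among the 3 Gria3 probes over the 32 arrays was 0.64, as a description of probes that share libraries. A direct comparison of the old knockouts, added after these values were seen, gave differences of -0.20, -0.13 and -0.21 for the 3 probes, CIAS minus ASC. None of these passed (adjusted p = 0.787, 0.892 and 0.712). Eif2s3y, a Y-linked gene, was low on 1 of 6 old wild type arrays and on 0 of 12 old knockout arrays. With its level as a covariate the ILMN_2638066 differences were -0.62 (adjusted p = 0.000184) and -0.42 (adjusted p = 0.0177).

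The other AMPA probes did not pass in either old comparison. The 3 probes of Gria1, the GluA1 subunit whose trafficking is best known from long-term potentiation, gave -0.33, -0.25 and -0.29 in the old ASC knockout and -0.32, -0.24 and -0.29 in the old CIAS knockout. On the probe ILMN_2648012 old wild type replicate 6 read 8.36 and the other 5 arrays 9.28 to 9.95, while old CIAS arrays ran from 8.56 to 9.88. Without replicate 6 that probe was lower in the old CIAS knockout by a called difference of -0.51 (adjusted p = 0.0466). Gria2 encodes GluA2, the subunit that makes AMPA receptors impermeable to calcium, and its probes stood at -0.21 and -0.34 in the old CIAS knockout. Gria4 was the AMPA subunit on the other side of 0, at 0.03 and 0.17.

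**Figure D2:**
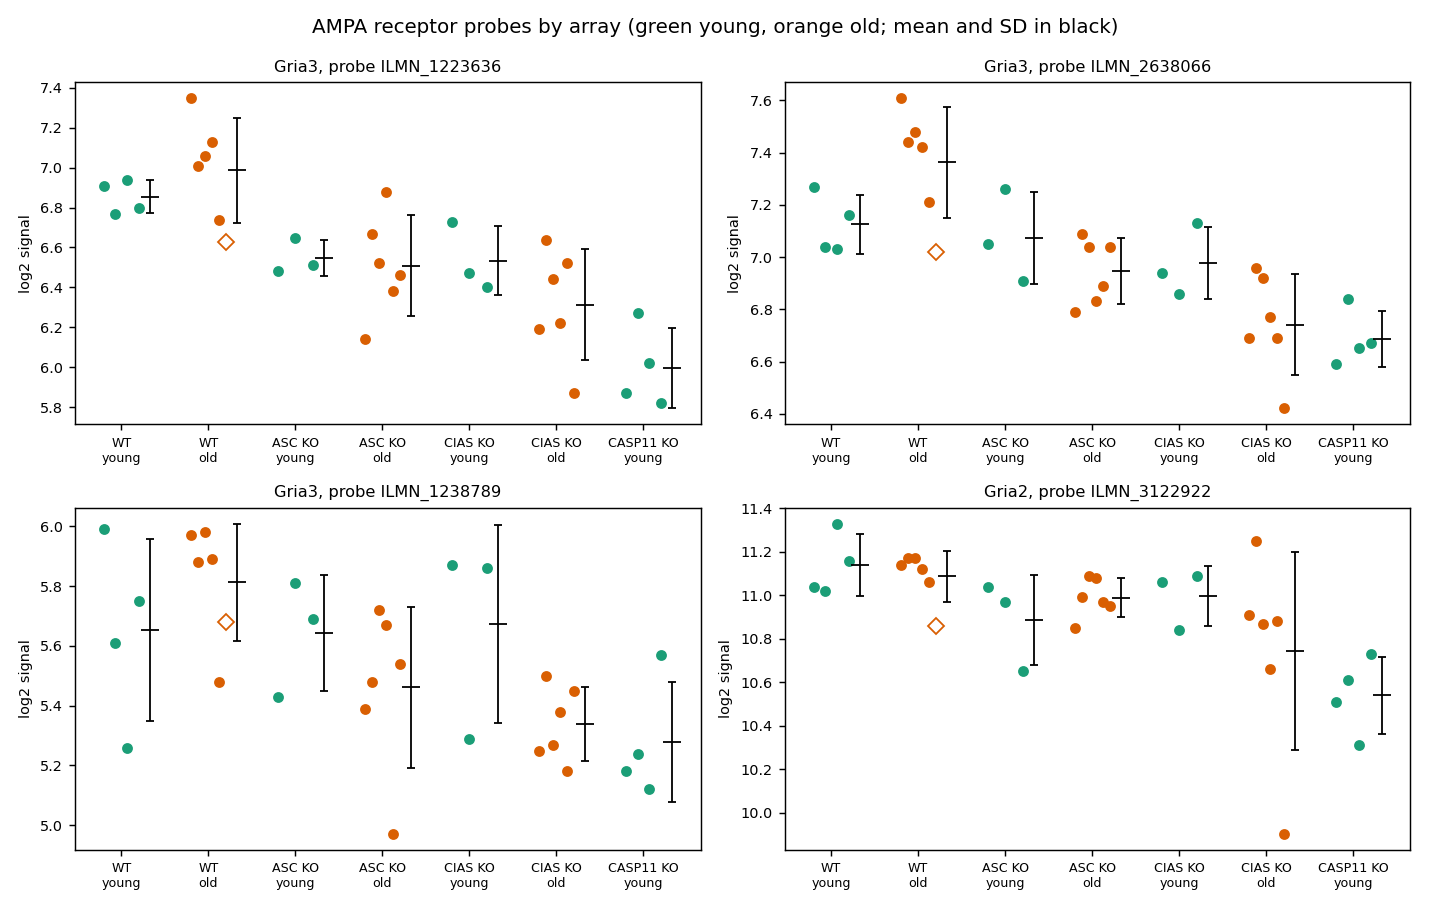
Log2 signal of 3 Gria3 probes and a Gria2 probe on every array, by group, with young arrays in green, old arrays in orange, old wild type replicate 6 as an open diamond and the mean ± SD in black. Old CIAS arrays of ILMN_2638066 all lie below old wild type, and the young arrays labelled CASP11 knockout all lie below young wild type for every probe shown except ILMN_1238789.

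Grm8 encodes mGlu8, a presynaptic receptor that restrains glutamate release, and its probe was the most regular of the receptor differences in old tissue. It had a lowest, median and highest value of 6.39, 6.55 and 6.72 in old wild type, 6.35, 6.55 and 6.76 in the old ASC knockout and 5.88, 6.01 and 6.14 in the old CIAS knockout. The old CIAS arrays lay below every other array of the study, while the old ASC and old wild type arrays covered the same range. The difference from old wild type was -0.55, 1.46-fold lower (SE 0.081, adjusted p = 7.31e-05). The difference of the old ASC knockout from old wild type was 0.01 (95% interval -0.16 to 0.17, adjusted p = 0.967).

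In the direct comparison of the old knockouts, added after these values were seen, Grm8 fell by 0.56 (SE 0.081, adjusted p = 0.000955) and its groups did not overlap. It was the 1 receptor probe of 28 called there, where 0.0339% of all probes (5 of 14745) were called and 0.427% had groups that do not overlap. The Grm8 calls between old groups held in every refit that left out 1 array and in all 8 other alternatives. Grm7, the other metabotropic receptor measured, also presynaptic, gave -0.04 in the old CIAS knockout and -0.10 in the old ASC knockout.

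Promoter windows are printed for the called genes that the RefSeq table of mouse build GRCm38.p6 holds, which were 4 of 5 genes (Grm8, Gabrb2, Gria2 and Glra2, but not Gria3). Each window has 300 bases, ends 50 bases past the most upstream start in the table, and reads 5′ to 3′ on the gene's strand. The RefSeq gene table puts the 5′ ends of Gabrb2, Gria2 and Glra2 further upstream, at 42419515, 80804227 and 165327867. The windows of those genes therefore lie inside the annotated gene spans. Capitals mark matches to the TATA box letters TATAAA, the CCAAT box letters CCAAT, the GC box letters GGGCGG or the cAMP response element core TGACG, searched on both strands. Over 32851 windows of the same length, 13.6% held the first, 37.4% the second, 35.7% the third and 20.8% the fourth. A match is a description of letters and not a shown site. The Grm8 window, chr6:28135097-28135396 on the minus strand, is shown because its gene was called in most comparisons of old CIAS tissue, and it holds CCAAT on both strands and 1 GC box.
Grm8: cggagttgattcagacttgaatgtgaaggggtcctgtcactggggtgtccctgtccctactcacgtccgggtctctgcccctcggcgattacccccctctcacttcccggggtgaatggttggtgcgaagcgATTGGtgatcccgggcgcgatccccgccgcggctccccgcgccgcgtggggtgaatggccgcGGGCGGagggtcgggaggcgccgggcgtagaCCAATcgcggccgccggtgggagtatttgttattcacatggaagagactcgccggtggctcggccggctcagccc

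Gabrb2 encodes the beta2 subunit found in most GABA-A receptors of the brain. Its brighter probe, ILMN_2696413, had a lowest, median and highest value of 7.40, 7.73 and 8.01 in old wild type, 7.25, 7.44 and 7.56 in the old ASC knockout and 6.76, 7.17 and 7.60 in the old CIAS knockout. The old CIAS arrays overlapped old wild type, with 2 arrays inside its range and 4 below it. The probe fell by 0.51 in the old CIAS knockout (SE 0.11, adjusted p = 0.0041), and the call held in every refit that left out 1 array. Its old ASC difference was -0.28 (SE 0.11, adjusted p = 0.139). The second Gabrb2 probe, ILMN_1247588, stood on the other side of 0, at 0.19 in the old CIAS knockout (SE 0.10, adjusted p = 0.281) and 0.28 in the old ASC knockout (SE 0.10, adjusted p = 0.12). The correlation of these probes over the 32 arrays was -0.19, so the direction of Gabrb2 depends on the probe read. The Gabrb2 window, chr11:42420190-42420489 on the plus strand, lies inside the annotated gene span and is shown for comparison with that of Grm8. It holds TATAAA from base -30, GGGCGG on the minus strand from base -233 and TGACG on the minus strand from base -1, counted from the start used for the window.
Gabrb2: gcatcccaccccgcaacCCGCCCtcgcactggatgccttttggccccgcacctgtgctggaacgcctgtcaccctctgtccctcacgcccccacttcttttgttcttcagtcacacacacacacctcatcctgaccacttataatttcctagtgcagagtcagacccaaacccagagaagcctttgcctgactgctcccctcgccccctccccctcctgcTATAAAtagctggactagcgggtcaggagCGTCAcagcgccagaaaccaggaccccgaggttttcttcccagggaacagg

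Other GABA-A, GABA-B, glycine, kainate and NMDA probes were not called in old knockout tissue. Gabrd, the delta subunit of extrasynaptic receptors of dentate granule cells, gave -0.35 and -0.39 in the old CIAS knockout and -0.42 and -0.38 in the old ASC knockout for its 2 probes. These differences were 0.02 and -0.03, and -0.05 and -0.02, without old wild type replicate 6. That array read 9.83 and 9.96, and the other 5 of its group 7.27 to 7.92 and 7.61 to 8.12. Glrb, which anchors glycine receptors to gephyrin, gave -0.19 and 0.31 for its 2 probes in the old CIAS knockout. Those probes had a correlation of -0.52 over the arrays. The kainate subunit Grik1 was lower by a called -0.36 in the old CIAS knockout only without replicate 6 (adjusted p = 0.0274), an array at 7.27 where the others ran from 8.28 to 8.65. Refits without another array added calls in both directions. Grik4 was higher in the old CIAS knockout without old wild type replicate 1 (0.44, adjusted p = 0.0483). Gabrb2 ILMN_1247588 was higher in the old ASC knockout without old ASC replicate 3 (0.375, adjusted p = 0.0226). Without old CIAS replicate 2, Glrb ILMN_1232399 (-0.28, adjusted p = 0.0147) and Gria2 ILMN_3122922 (-0.45, adjusted p = 0.0266) were lower in the old CIAS knockout.

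**Figure D3:**
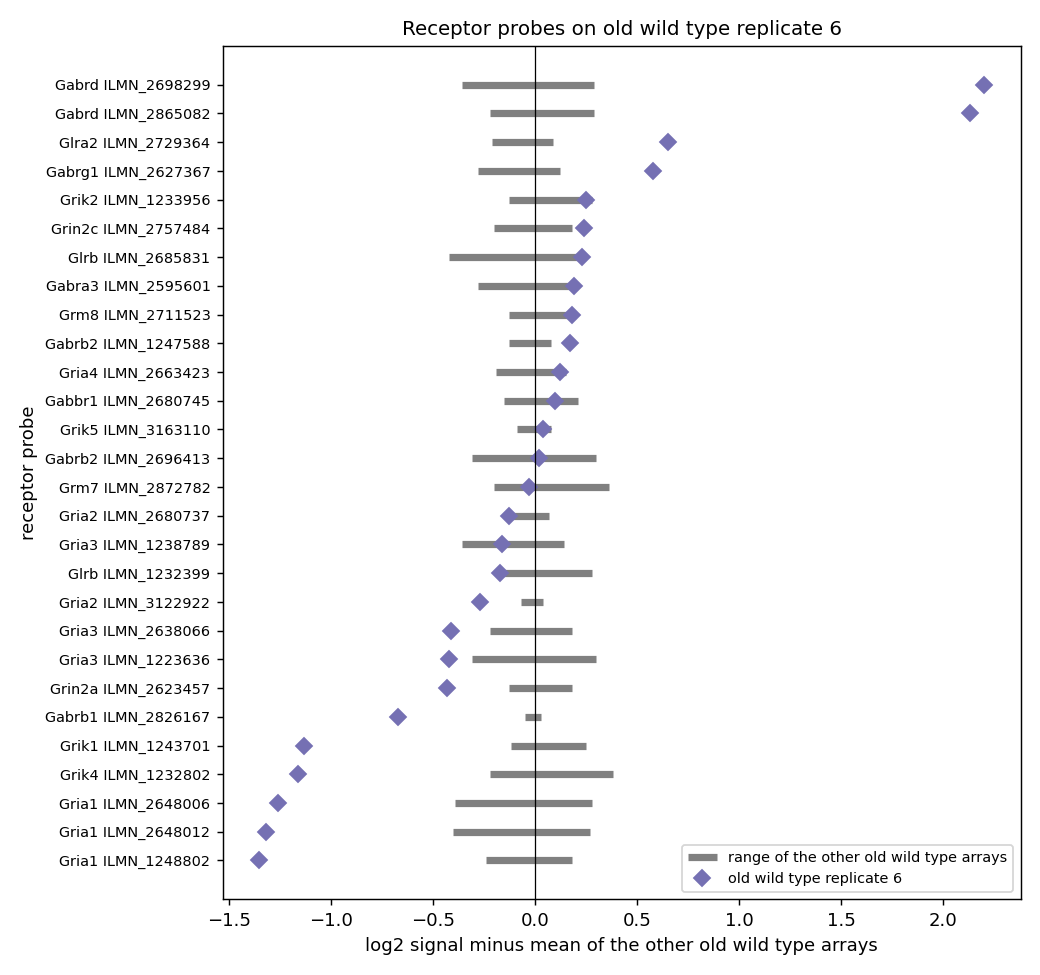
Log2 signal of each receptor probe on old wild type replicate 6 (diamond) minus the mean of its group without it (5 arrays), with their range as a grey bar. Replicate 6 lay above the others for 7 probes and below them for 10, with both Gabrd probes more than 2 log2 units higher and the 3 Gria1 probes, Grik4 and Grik1 more than 1 lower. Old wild type replicate 1 (not drawn apart) lay above the rest of the group for 11 probes and below for 4. It had 0 probes more than 1 log2 unit from the mean of the rest, against 7 for replicate 6.

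Without old wild type replicate 6 the receptor calls in the old CIAS knockout were 7 of 28, all lower (8.12% of all probes called), and those in the old ASC knockout 2 of 28 (4.03%). All 5 CIAS calls and both ASC calls described above were among them. Microglial markers (6 of 8 genes measured) moved with both comparisons. Their summed level ran from 10.63 to 10.90 in old wild type, from 10.37 to 10.54 in the old ASC knockout and from 10.09 to 10.45 in the old CIAS knockout. The pan-neuronal sum ran from 14.72 to 15.15, from 14.89 to 15.13 and from 15.01 to 15.09 in the same order. The part of these lists in the receptor differences was not tested.

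Young CASP11 knockout hippocampus was set against young wild type. AMPA subunits made up all the calls: 3 of 28 receptor probes were lower on the arrays labelled CASP11 knockout, 2 of Gria3 and 1 of Gria2, and 0 were higher. Over all probes 2.63% were called and 1.86% were lower. The median receptor difference was -0.14, against 0.01 over all probes. Groups did not overlap for 9 receptor probes, 8 of them lower (13.3% of all probes), and 7 of the 8 were AMPA probes, namely all those of Gria1 and Gria2 and 2 of 3 of Gria3. The eighth was Grik1.

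The Gria3 probe ILMN_1223636 read 6.91, 6.77, 6.94 and 6.80 on the young wild type arrays. It read 5.87, 6.27, 6.02 and 5.82 on the arrays labelled CASP11 knockout. All 4 of the latter lay below all of the former, and the probe fell by 0.86, 1.82-fold lower (SE 0.15, adjusted p = 0.000948). Probe ILMN_2638066 read 7.27, 7.04, 7.03 and 7.16 in young wild type and 6.59, 6.84, 6.65 and 6.67 under the CASP11 label. Its groups did not overlap either, and it fell by 0.43 (SE 0.11, adjusted p = 0.0339). The dimmest probe, ILMN_1238789, gave -0.38 with overlapping groups (SE 0.15, adjusted p = 0.218).

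The Gria2 probe ILMN_3122922 read 11.04, 11.02, 11.33 and 11.16 in young wild type. It read 10.51, 10.61, 10.31 and 10.73 under the CASP11 label, each below the lowest wild type array. It fell by 0.60 (SE 0.16, adjusted p = 0.0376). The other Gria2 probe, ILMN_2680737, gave -0.28 (SE 0.12, adjusted p = 0.23), also with groups that did not overlap. It was called only in the refit without old CIAS replicate 6 (-0.28, adjusted p = 0.0358). The call of ILMN_1223636 held in every refit without 1 array. That of ILMN_2638066 was lost without young wild type replicate 1, 3 or 4 or CASP11 replicate 1, 3 or 4 (adjusted p up to 0.122). That of ILMN_3122922 was lost without any 1 of the 4 young wild type arrays or without CASP11 replicate 1, 2 or 3 (adjusted p up to 0.136). The Gria2 window, chr3:80802786-80803085 on the minus strand, is shown as that of the other AMPA gene called, and it holds none of the 4 motifs, with 65.7% G and C.
Gria2: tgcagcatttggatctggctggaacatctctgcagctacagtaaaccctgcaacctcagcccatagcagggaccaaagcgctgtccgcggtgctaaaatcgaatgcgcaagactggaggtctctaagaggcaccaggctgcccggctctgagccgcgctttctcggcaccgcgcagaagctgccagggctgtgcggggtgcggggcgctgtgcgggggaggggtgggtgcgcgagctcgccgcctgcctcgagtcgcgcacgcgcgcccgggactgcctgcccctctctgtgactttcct

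The 3 Gria1 probes gave -0.46, -0.55 and -0.46 and did not pass (adjusted p = 0.416, 0.256 and 0.381), and Gria4 gave 0.11. Grik1, a kainate subunit, read 8.51, 7.93, 8.47 and 8.13 in young wild type and 7.84, 7.75, 7.82 and 7.71 under the CASP11 label. It differed by -0.48 (SE 0.18, adjusted p = 0.155), with every array of the CASP11 group below wild type. Gabbr1, the ligand-binding subunit of the GABA-B receptor, was the 1 receptor probe whose CASP11 group lay wholly above wild type, at 0.64 (SE 0.19, adjusted p = 0.0613). Without old wild type replicate 6, which enters this comparison only through normalization and the shared variance, 5 probes were called (4.14% of all probes), with Grik1 lower (adjusted p = 0.0165) and Gabbr1 higher (adjusted p = 0.0498).

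A comparison with the mean of the young ASC and CIAS knockouts was added after these values were seen. In it 1 of 28 receptor probes, Gria3 ILMN_1223636, was lower under the CASP11 label, by a difference of -0.55 (SE 0.14, adjusted p = 0.0362), where 1.61% of all probes were called. The call was lost without young ASC replicate 1, 2 or 4, young CIAS replicate 1 or 2, or CASP11 replicate 1, 3 or 4. It was also lost in 3 of the 7 other settings that kept the probe (adjusted p up to 0.0691), as given with the processing alternatives. Without old wild type replicate 6 there were 3 calls (2.86% of all probes), with Gria3 ILMN_2638066 and Grik1 added. Without old CIAS replicate 6 there were also 3, with both Gria2 probes added.

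Markers of other cells moved with the CASP11 comparison. Oligodendrocyte markers (7 of 8 genes measured) summed to 15.19 to 15.29 under the CASP11 label and 14.59 to 15.06 in young wild type. Interneuron markers (8 of 10, without Gad2 and Lhx6) summed to 14.42 to 14.54 and 14.59 to 14.67, and microglial markers to 10.08 to 10.12 and 10.29 to 10.44. Markers of CA3 and CA2 (5 of 6, without Lct) summed to 11.21 to 11.31 and 10.82 to 11.19. None of these 4 lists overlapped between the groups, while the other marker lists did, and their part in the AMPA differences was not tested. Eif2s3y was low on 2 of 4 arrays in each group. The young CIAS knockout also lay below young wild type for microglial (10.24 to 10.27) and oligodendrocyte precursor markers (10.56 to 10.59). It lay above young wild type for pan-neuronal markers (15.07 to 15.11). In the young ASC knockout all lists overlapped young wild type.

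Young ASC and CIAS knockouts were set against young wild type to ask whether the genotypes differed before old age. By limma 0 of 28 receptor probes were called in either, with 1 and 2 at an unadjusted p under 0.05, where 0.00678% and 0% of all probes were called. Groups did not overlap for 4 receptor probes in the young ASC knockout (6.12% of all probes) and for 6 in the young CIAS knockout (9.81%). The comparisons share the 4 young wild type arrays, on which Gabbr1 was low. In the young ASC knockout they were Gabbr1 and Glrb ILMN_2685831 above wild type and Gria3 ILMN_1223636 and Grik5 below it. In the young CIAS knockout they were Gabbr1 and Gabrb2 ILMN_1247588 above wild type and Gria3 ILMN_1223636, Grik5, Grin2a and Grin2c below it. Gria3 ILMN_1223636 read 6.48, 6.65 and 6.51 in the young ASC knockout and 6.73, 6.47 and 6.40 in the young CIAS knockout, all below the 4 wild type values given above. Its differences were -0.31 and -0.33, and neither passed (adjusted p = 0.999 and 0.658).

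Old and young samples were compared within each genotype to ask which receptor subunits differ in old hippocampus and whether the knockouts differ. Young samples were 1 month old, and no group lay between that age and 21 months. Maturation after 1 month and later ageing therefore cannot be told apart in any age difference given. In wild type 0 of 28 probes were called (5.25% of all probes), with 4 at an unadjusted p under 0.05. In the ASC knockout 0 were called (0.264%), with 1 at an unadjusted p under 0.05. In the CIAS knockout 1 was called, Grm8, and it was lower (0.692%). The age effect averaged over the 3 genotypes called 2 probes, Grm8 and Glra2, both lower in old tissue (5.52%). Median receptor differences were 0.03 in wild type, -0.05 in the ASC knockout and -0.08 in the CIAS knockout, and all probes had medians of -0.01 to 0.00. The genotypes' age effects use separate arrays, but those of the knockouts are set against wild type below and then share its arrays.

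Grm8 read 6.65, 6.40 and 6.40 in the young CIAS knockout, all above the highest old value of 6.14. It fell by 0.48 with age, 1.39-fold lower (SE 0.099, adjusted p = 0.0128). It lost the call without young CIAS replicate 1, the highest young array (-0.39, adjusted p = 0.103). Groups did not overlap for 2 receptor probes in this comparison, Grm8 and Grik1, both lower in old tissue (6.91% of all probes). In wild type Grm8 read 6.81, 6.71, 6.75 and 6.43 in young samples and overlapped the old ones, with an age difference of -0.12 (SE 0.090, adjusted p = 0.485). In the ASC knockout young samples read 6.70, 6.43 and 6.73, and the difference was -0.06 (SE 0.099, adjusted p = 0.955). The averaged age effect was -0.22 (SE 0.056, adjusted p = 0.0161), and it too was lost without young CIAS replicate 1 (adjusted p = 0.0542). The difference between the CIAS and wild type age effects of Grm8 was -0.36 and did not pass (SE 0.13, adjusted p = 0.215).

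Glra2 encodes the alpha2 subunit of the glycine receptor, known as the form that predominates in the developing brain, and lies on chromosome X. Its probe read 8.91, 8.13, 8.86 and 8.51 in young wild type. In old wild type replicate 6 read 8.83 and the other 5 arrays 7.97 to 8.27. Apart from that array, 3 of 4 young arrays stood above all old ones. In the ASC knockout young samples read 8.75, 8.50 and 8.47, all above the old range of 8.06 to 8.36, while in the CIAS knockout 8.49, 8.35 and 8.37 overlapped an old range of 8.13 to 8.48. Age differences were -0.32, -0.38 and -0.08 in wild type, ASC and CIAS knockouts, and none passed alone.

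The averaged age effect of Glra2 was -0.26 (SE 0.079, adjusted p = 0.0492), and it sat at the threshold. Leaving out 1 array ended the call in 26 of 32 refits, with adjusted p up to 0.127. Without old wild type replicate 6 it was -0.29 (adjusted p = 0.00501), and the age difference in wild type alone was then a called -0.42 (adjusted p = 0.021), where 6.73% of all probes were called. The wild type difference also passed without young wild type replicate 2, the lowest young array (-0.47, adjusted p = 0.0288). With Eif2s3y as a covariate the averaged effect was -0.25 (adjusted p = 0.113). Eif2s3y was low on 2 of 4 young and 1 of 6 old wild type arrays and on 2 of 3 young and 0 of 6 old ASC arrays. Cell type markers moved with age as well. In the averaged age effect 5 of 7 microglial probes were called higher (median 0.325) and 6 of 13 oligodendrocyte probes lower (median -0.29). By genotype the oligodendrocyte median was -0.40 in the ASC knockout and -0.52 in the CIAS knockout, with 1 probe called lower in each. In wild type it was 0.13 with 0 called, and -0.02 without replicate 6. The summed oligodendrocyte precursor markers (3 of 6 genes) did not overlap between young and old samples in any genotype, at 10.62 to 10.68 and 9.93 to 10.08 in wild type, but in the averaged age effect 1 of their 3 probes was called and their median was -0.12. The part of these lists in the Glra2 difference was not tested. The Glra2 window, chrX:165327344-165327643 on the minus strand, holds TATAAA and GGGCGG, each on the opposite strand.
Glra2: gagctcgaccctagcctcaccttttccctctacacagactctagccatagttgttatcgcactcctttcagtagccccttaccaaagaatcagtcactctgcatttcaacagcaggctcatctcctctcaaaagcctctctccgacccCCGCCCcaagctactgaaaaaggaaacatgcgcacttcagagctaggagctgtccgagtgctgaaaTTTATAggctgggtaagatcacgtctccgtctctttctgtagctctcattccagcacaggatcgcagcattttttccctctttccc

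**Figure D4:**
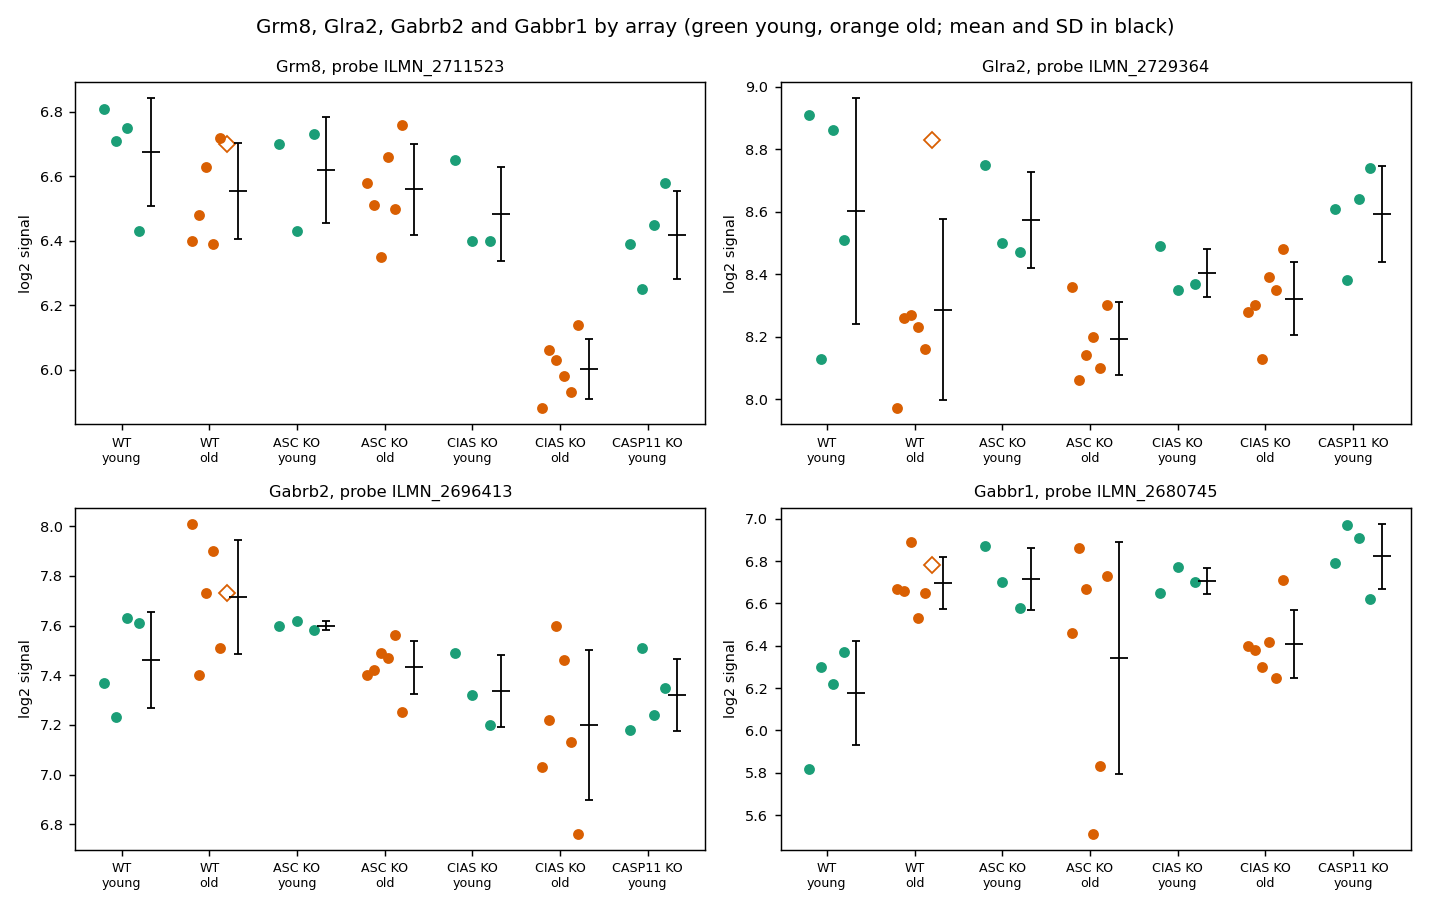
Log2 signal of the probes of Grm8, Glra2, Gabrb2 and Gabbr1 on every array, by group, with young arrays in green, old arrays in orange, old wild type replicate 6 as an open diamond and the mean ± SD in black. Old CIAS arrays of Grm8 lie below all others, and 2 old ASC arrays of Gabbr1 lie apart at 5.51 and 5.83.

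Gabbr1 had the highest age difference of the 28 probes in wild type and negative ones in both knockouts, and none was called. It read 5.82, 6.30, 6.22 and 6.37 in young wild type and 6.53 to 6.89 in old wild type, where the groups did not overlap. In the ASC knockout it read 6.87, 6.70 and 6.58 in young samples and 6.46, 6.86, 6.67, 5.51, 5.83 and 6.73 in old ones, of which replicates 4 and 5 lay far below the rest. In the CIAS knockout young samples read 6.65, 6.77 and 6.70 and old ones 6.25 to 6.42, apart from replicate 6 at 6.71. The age differences were 0.52 (SE 0.17, adjusted p = 0.0749), -0.37 (SE 0.19, adjusted p = 0.674) and -0.30 (SE 0.19, adjusted p = 0.548).

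The difference of the ASC age effect of Gabbr1 from that of wild type was -0.89 (SE 0.26, adjusted p = 0.256), and that of the CIAS age effect was -0.82 (SE 0.26, adjusted p = 0.124). Young wild type, which enters both differences, held the lowest young values. Without old ASC replicate 4 the probe passed for age in wild type (0.52, adjusted p = 0.0216), for the CIAS age effect against wild type (-0.82, adjusted p = 0.0457) and under the CASP11 label (0.64, adjusted p = 0.0131). Without old ASC replicate 2 or 5 it passed under the CASP11 label (adjusted p = 0.0473 and 0.0454). These old ASC arrays enter those comparisons through normalization and the shared variance. Grik5, a kainate receptor subunit, was also low on old ASC replicates 4 and 5, at 6.94 and 7.22 where the other 4 ran from 7.94 to 8.14. In wild type the receptor probes whose young and old groups did not overlap were Gabbr1, higher in old tissue, and Grik5, lower (5.97% of all probes). In the ASC knockout they were Gabrb2 ILMN_2696413 and Glra2, lower in old tissue, and Grik4, higher (4.75%).

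By limma 0 of 28 receptor probes were called for a difference of the ASC age effect from wild type (0% of all probes), with 3 at an unadjusted p under 0.05. For the CIAS age effect 0 were called (0.359%), with 5 at an unadjusted p under 0.05. All 3 Gria3 probes had a more negative age difference in the CIAS knockout than in wild type, by -0.35, -0.50 and -0.48. Their own age differences were 0.13, 0.16 and 0.24 in wild type and -0.22, -0.34 and -0.23 in the CIAS knockout. Probe ILMN_2638066 had an adjusted p of 0.138 for this difference, and of 0.0496 without old wild type replicate 6 (-0.55), the 1 receptor probe then called (1.24% of all probes).

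The remaining families stayed short of the threshold in the averaged age effect. AMPA probes had a median of -0.04 with a range from -0.12 to 0.06, and GABA-A probes a median of -0.03 with a range from -0.11 to 0.03. Grin2c and Grin2a, NMDA subunits that set deactivation kinetics, gave -0.14 (SE 0.069, adjusted p = 0.306) and -0.08 (adjusted p = 0.669). Grik1 and Grik5 gave -0.11 and -0.10 (adjusted p = 0.648 and 0.634). Gabrg1 and Gabra3, gamma and alpha subunits of GABA-A receptors, gave -0.11 and -0.07 (adjusted p = 0.515 and 0.665). Grm7 gave 0.02 (adjusted p = 0.886), and Glrb ILMN_2685831 gave 0.06 (adjusted p = 0.796).

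Genes that serve these receptors were read from 3 lists. Of 28 genes that make, clear or carry the transmitters, 24 were measured by 33 probes, and 1 probe rose and 1 fell in the averaged age effect, which is 6.06% of the list beside 5.52% of all probes. Gad1, which makes GABA, rose by 0.19 (SE 0.051, adjusted p = 0.0217) on 1 of 2 probes, the other giving 0.13 (adjusted p = 0.287). Slc17a6, the vesicular glutamate transporter VGLUT2, fell by 0.49 (SE 0.14, adjusted p = 0.035). Its mean went from 10.28 ± 0.22 (SD, n = 4) to 9.67 ± 0.71 (SD, n = 6) in wild type, from 10.38 ± 0.29 (SD, n = 3) to 9.95 ± 0.17 (SD, n = 6) in the ASC knockout and from 10.23 ± 0.20 (SD, n = 3) to 9.81 ± 0.29 (SD, n = 6) in the CIAS knockout.

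Of 26 auxiliary subunits and chaperones, 17 were measured by 26 probes, of which 7.69% were called. Shisa7, an auxiliary protein of AMPA and GABA-A receptors, fell by 0.22 (SE 0.064, adjusted p = 0.0383). Neto1, an auxiliary subunit of kainate receptors, rose by 0.19 (SE 0.054, adjusted p = 0.0367) on 1 of 3 probes. Of 35 postsynaptic scaffolds and organisers, 25 were measured by 38 probes and 2 probes fell, or 5.26%. Nptx2, a secreted pentraxin that clusters AMPA receptors, fell by 0.43 (SE 0.11, adjusted p = 0.0182). Dlgap4, a partner of PSD-95, fell by 0.18 (SE 0.054, adjusted p = 0.0403) on 1 of 3 probes, its others giving 0.02 and 0.09. The shares called in the lists, each of 2 probes, lay near that of all probes. Medians of the 3 lists were 0.01, -0.01 and -0.08, against 0.00 over all probes.

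Between genotypes, the 97 probes of the 3 lists gave 2 higher and 0 lower calls in the old ASC knockout (2.06%, against 3.82% of all probes), and 3 higher and 1 lower in the old CIAS knockout (4.12%, against 7.92%). Under the CASP11 label 2 were higher and 2 lower (4.12%, against 2.63%). The genes are named here after their values were seen. Grip1, a scaffold that binds the tails of GluA2 and GluA3, fell on both its probes under the CASP11 label, by 0.81 (SE 0.20, adjusted p = 0.0208) and by 0.75 (SE 0.21, adjusted p = 0.0496) against young wild type. Against the mean of the young ASC and CIAS knockouts it fell by 0.78 (adjusted p = 0.0203) and by 0.76 (adjusted p = 0.0358). Nlgn1, a postsynaptic adhesion protein of excitatory synapses, rose by 0.65 (SE 0.15, adjusted p = 0.0135) under the CASP11 label, by 0.45 (adjusted p = 0.0362) in the old ASC knockout and by 0.41 (adjusted p = 0.0347) in the old CIAS knockout, each against wild type of the same age.

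Kctd12b, of the family of GABA-B receptor auxiliary proteins, rose on 1 of 2 probes by 0.35 (adjusted p = 0.0367) in the old ASC knockout and by 0.31 (adjusted p = 0.0385) in the old CIAS knockout. Both calls were lost without old wild type replicate 6 (adjusted p = 0.0673 and 0.0848). Slc38a2, a neutral amino acid transporter that carries glutamine, rose by 0.46 (adjusted p = 0.0253) in the old CIAS knockout on 1 of 3 probes, its others giving -0.23 and -0.05. Neto1 fell by 0.55 (adjusted p = 0.0242) there on probe ILMN_2687473, which is not the probe that rose with age, and its others gave 0.10 and -0.13.

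For age in wild type the 97 list probes gave 1 higher and 1 lower call (2.06%, against 5.25% of all probes). The lower was Shisa7, at -0.37 (limma adjusted p = 0.0332), which did not pass without old wild type replicate 6 (adjusted p = 0.0553). The higher was Dlg4, which encodes the scaffold PSD-95, with a log2 difference of 0.80 (limma adjusted p = 0.00313, SE 0.16). Young and old wild type means were 5.56 ± 0.38 (SD, n = 4) and 6.36 ± 0.14 (SD, n = 6). The signal of this probe was low, from 5.03 to 5.88 in young wild type, and it ran from 5.37 to 6.45 in the old ASC knockout. Its age differences were -0.295 in the ASC knockout and -0.293 in the CIAS knockout, and neither passed. The CIAS age effect differed from that of wild type by -1.09 (SE 0.24, adjusted p = 0.0312), and the ASC age effect by the same -1.09 without passing (SE 0.24, adjusted p = 0.181). Dlg4 was the 1 call of the 97 list probes for the CIAS age effect against wild type (1.03%, against 0.359% of all probes). Like Gabbr1 it was low in young wild type, and it stood at 6.34 ± 0.12 (SD, n = 3), 6.27 ± 0.069 (SD, n = 3) and 6.23 ± 0.12 (SD, n = 4) in the young ASC, CIAS and CASP11 groups. It rose by 0.66 under the CASP11 label (adjusted p = 0.0338).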

How the data were processed

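Linear intensity values of 32 arrays, each with its detection p-value, were deposited by the authors in 1 table, per the file headers. The submitters' processing notes name GenomeStudio without a version. No intensity in that table was below 27.04, as happens where background is not subtracted. A second deposited table of normalized intensity values, by a method not given in the sources used here, was used as an alternative after raising values under 16 to that floor.

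Background correction and quantile normalization were done by neqc of limma 3.58.1 under R 4.3.3, which used an offset of 16, took the negative controls from the detection p-values and gave log2 signals. Probes entered the fit at a detection p-value under 0.05 on at least 3 arrays. Symbols came from the platform annotation and matched the RefSeq mouse gene table for all receptor probes. One fit of 7 group means, with 25 residual and 4.383 prior degrees of freedom, gave 11 comparisons and 2 added after values were seen. All tests were 2-sided, and p-values were adjusted over all 14745 probes by the Benjamini-Hochberg method. The number of arrays limits the precision.

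The members and lists were chosen with earlier results of these data known. Named probes were up to 8 called per comparison, the 2 with the smallest adjusted p per family for the averaged age effect, other probes of the same genes, and up to 4 called genes per list. Replicate numbers gave no sign of a general pairing of the samples: deviations of same-numbered arrays had a median correlation of 0.001 and those of other arrays 0.005. A few paired arrays would not show in a median. Alternatives were the deposited normalized values, an offset of 50, quantile normalization with no background correction, no filter, a stricter filter, 1 probe per gene, a Y-linked covariate, the replicate number as a block, and leaving out each array.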

Additional observations from a re-analysis of the deposited data

Results flagged for a closer look

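Single arrays stood apart from the rest of their group for 15 of 140 pairs of a receptor probe and a group of 4 or more arrays, by Dixon's test at its 95% level. Chance gives about 1 in 20. Old wild type replicate 6 accounted for 7 of them. It lay above the other 5 arrays for both Gabrd probes, at 9.83 against 7.27 to 7.92 and at 9.96 against 7.61 to 8.12, and for Glra2, at 8.83 against 7.97 to 8.27. It lay below them for Gria1 ILMN_1248802, at 9.17 against 10.28 to 10.70, for Grik1, at 7.27 against 8.28 to 8.65, for Gabrb1, at 8.37 against 8.99 to 9.07, and for Gria2 ILMN_3122922, at 10.86 against 11.06 to 11.17.

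Old CIAS knockout replicate 6 accounted for another 3. It read 11.94 for Gria2 ILMN_2680737 where the others ran from 12.61 to 12.80, 8.47 for Gabrb1 where they ran from 8.85 to 9.05, and 6.71 for Gabbr1 where they ran from 6.25 to 6.42. Gria4 ILMN_2663423 stood apart at 5.49 on old CIAS knockout replicate 5, against 5.91 to 6.13, and at 5.41 on young wild type replicate 3, against 5.76 to 5.78. Old CIAS knockout replicate 3 read 4.77 for Grik2, against 5.10 to 5.30. Gria1 ILMN_2648012 read 8.58 on replicate 3 of the arrays labelled CASP11 knockout, against 8.94 to 8.96, and Grin2a read 5.13 on young wild type replicate 1, against 5.34 to 5.37.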

How the results depend on the processing

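Of 26 named results 15 were called, and each was recomputed under 8 other settings and without each of 32 arrays, apart from 1 probe per gene and the stricter filter where these dropped the probe. Receptor probes called for the averaged age effect numbered 2, and 1 with the deposited normalized values, with no filter and with the Y-linked covariate, where Glra2 lost its call. For old ASC knockout against old wild type they numbered 2, and 1 with no filter and with 1 probe per gene. For old CIAS knockout against old wild type they numbered 5, and 3 with 1 probe per gene, a setting that tests fewer probes of a gene. For young CASP11 knockout against young wild type they numbered 3, and 1 with no filter and with 1 probe per gene. Against the mean of the young ASC and CIAS knockouts they numbered 1, and 0 with an offset of 50, quantile normalization on uncorrected signals, no filter or 1 probe per gene. The cause was not tested where no construction is named.

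Leaving out 1 array gave counts of 0 to 1 for age in wild type, 0 to 0 for age in the ASC knockout, 0 to 1 for age in the CIAS knockout, 0 to 2 for the averaged age effect, 0 to 0 and 0 to 1 for the ASC and CIAS age effects against wild type, 1 to 3 for the old ASC knockout, 5 to 7 for the old CIAS knockout, 0 to 0 for the young ASC and CIAS knockouts, 1 to 5 for CASP11 against young wild type, 0 to 3 for CASP11 against the young ASC and CIAS knockouts, and 1 to 1 for old CIAS against old ASC. The count for the averaged age effect was 0 without young CIAS replicate 1. With the replicate number as a block no named call was lost, CASP11 against young wild type gave 4 calls, and the averaged age effect of Gria2 ILMN_2680737 turned from -0.07 to 0.01 (0.013). That of Gabbr1, -0.05, ranged from -0.092 to 0.004 over the refits and turned without old ASC replicate 4, and that of Grm7, 0.02, ranged from -0.008 to 0.059 and turned without young ASC replicate 4. Signal over background limits Grin2a, Grik2 and Gria3 ILMN_1238789, which were not detected on every array.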
